A study of Homo sapiens with 5 samples.

Results

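The ARF, COPI, COPII and Golgi genes are a set of 50 genes for the small GTPases, vesicle coats, golgins and cargo receptors that carry proteins between the endoplasmic reticulum (ER) and the Golgi. They were taken by symbol from a table that lists 26364 gene names, and all 50 were found. The list was built around ARF4, which was chosen by its measured values, a higher count after NSD2 knockdown in earlier results of these data, and the other 49 genes were added by their function. The difference of ARF4 is therefore a description of the gene that led to the list, and it is not used as support for anything. By role the genes were 6 ARF GTPases, 6 ARF regulators, 9 COPI coat subunits, 10 COPII coat genes, 9 golgins, tethers and stacking factors, and 10 retrieval, p24 and cargo receptors.

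The data were mRNA-seq libraries of growing IMR-90 cells, a line of normal human lung fibroblasts, collected 24 h after siRNA transfection. Of 5 libraries, 2 were from Ctr-KD cells, which received a control siRNA (Ctr-1 and Ctr-2), and 3 were from NSD2-KD cells, which received NSD2-1, NSD2-2 or NSD2-3, each a different siRNA against the histone methyltransferase NSD2. Each NSD2 siRNA was sequenced once, so an effect of a single siRNA and the spread between libraries cannot be told apart. The values are normalized counts, the reads on a gene divided by 1 size factor per library.

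Between 2473691 and 2845063 reads fell on genes in each library. NSD2, listed as WHSC1, had normalized counts of 463 and 443 in Ctr-KD cells and of 90.2, 81.9 and 87.9 with the 3 siRNAs. The 8 fibroblast markers (COL1A1, COL1A2, COL3A1, VIM, THY1, PDGFRB, LUM and DCN) summed to between 156068 and 174335 normalized counts in every library. Of the 5 epithelial, 3 endothelial and 3 blood cell markers, 8 were at or under 3 reads in all libraries. KRT5, SFTPC, PECAM1, CDH5, PTPRC and CD3E were without a read. The summed levels were 78.6 to 156, 1.9 to 5.52 and 60.5 to 103 normalized counts. KRT18 made up nearly all of the epithelial sum (93.4 and 80.2 in Ctr-KD cells, 87.4, 76.5 and 154 in NSD2-KD cells). CD68 made up the blood cell sum (78.1 and 70 against 82.8, 103 and 60.5). Between Ctr-1 and Ctr-2 the difference was within sampling noise over the 50 genes (chi-square per degree of freedom of 0.756) and close to it over all tested genes (1.05). They were kept as 2 replicates because the procedures of the study call them that, but their spread may be technical.

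ARF proteins are GTPases that bind membranes in their GTP form and there recruit coats. COPII vesicles, built on the GTPase SAR1 with SEC23-SEC24 and SEC13-SEC31 layers, leave the ER. COPI vesicles, whose coatomer is recruited by ARF1, return escaped ER proteins and recycle material within the Golgi, and golgins tether incoming vesicles and hold the stack together. Fibroblasts secrete large amounts of collagen and other matrix proteins through this route. When the Golgi is overloaded, cells raise Golgi genes through the factor TFE3, which binds the Golgi stress element, and ARF4 is a known target of the factor CREB3.

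The core of the Golgi stress element, ACGTGGC on either strand, was present in the promoters of 19 of the 42 genes with a window in the RefSeq promoter table (45.2%), against 5.97% of 8645 tested genes and 3.95% of 27305 genes in the table. A window runs from 250 bases before to 50 bases after an annotated start, and a gene counted once if any of its windows held the motif. By role the core was in 1 of 5 ARF GTPases, 0 of 4 ARF regulators, 4 of 9 COPI genes, 6 of 9 COPII genes, 4 of 7 golgins and stacking factors and 4 of 8 receptors. The sites of 7 genes are shown. They are the ARF GTPase with the core (ARF1) and the core-bearing genes that were at least 1.5-fold lower with 1 NSD2 siRNA, described further on. These genes were chosen by their measured values, and a link between the core and lower counts was not tested. ARL1, SEC23B and LMAN1 were also lower by that limit with 1 siRNA and had a window without the core. Each line reads 5′ to 3′ along the strand of the gene, with the core or its reverse complement, GCCACGT, in capitals.
ARF1: cggaggcgctgACGTGGCcgccgtcagag
SEC23A: ccctcctcttgACGTGGCagaggcggcgc
SEC24A, first site: gagagtcggtgACGTGGCggcgaggccgg
SEC24A, second site: gagccggaagtGCCACGTgtcctgattgc
GOLGA1: gccgctcgctgACGTGGCgaactgggctg
GOLGA3: cccctctcacgGCCACGTctccgccggag
GOLGA5: accggcggcgaGCCACGTcacacgcacgc
GORASP2: cggcagcgagtGCCACGTcccaagtgcta

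Of the 56 windows of these genes, 55 had a single exact match on GRCh37, and COPZ2, which holds the core, has no coordinates here. On GRCh37 the ARF1 site lies at chr1:228270384-228270412 on the plus strand and the SEC23A site at chr14:39572424-39572452 on the minus strand. The SEC24A sites lie at chr5:133984287-133984315 and chr5:133984420-133984448, and the GOLGA5 site at chr14:93260459-93260487, all on the plus strand. The GOLGA1 site is at chr9:127703526-127703554 and the GOLGA3 site at chr12:133405430-133405458, both on the minus strand, and the GORASP2 site is at chr2:171785742-171785770 on the plus strand. The unfolded protein response element, TGACGTGG, which can overlap the core, was in 10 of 42 genes (23.8%) against 1.33% of tested genes. CCACG, which the core contains, was in 39 of 42 (92.9%) against 58.2%. The cAMP response element, TGACGTCA, was in 0 of 42 against 3.93%, and the ER stress element, CCAAT and CCACG with 9 bases between them, in 0 of 42 against 0.174%. These are matches of letters in a window, and the expression data do not bear on whether a factor binds there. ARF4, ARFGEF1, ARFGAP1, SEC24D, GOLGA4, USO1, KDELR2 and TMED9 had no window in the table used here.

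**Figure D1:**
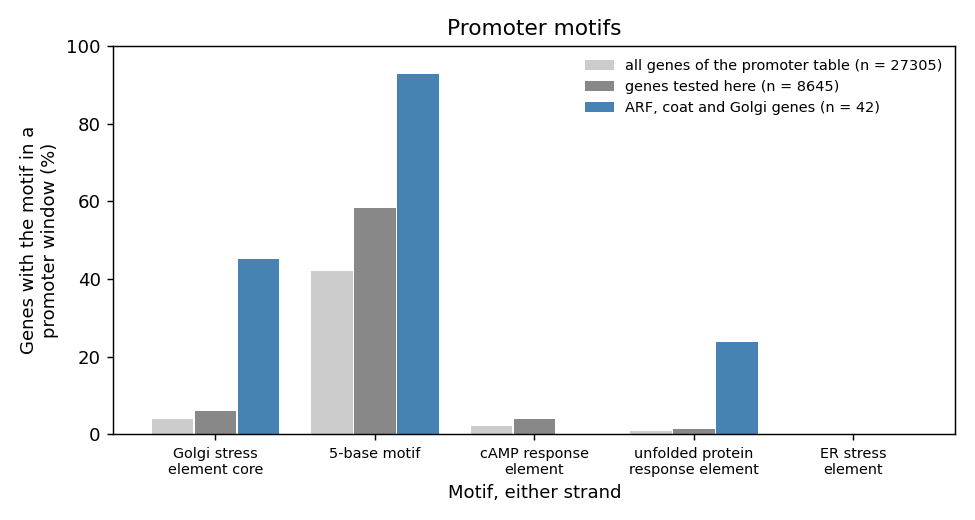
Share of genes (%) with each motif in a promoter window, on either strand, for all 27305 genes of the promoter table, the 8645 tested genes with a window and the 42 ARF, coat and Golgi genes with one. The 5-base motif is CCACG. The Golgi stress element core reaches 45.2% in the 42 genes and 5.97% in the tested genes.

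Of the ARF GTPases, ARF4 and ARF5 lay above both controls with each siRNA, ARF4 by much more. ARF4, a class II ARF that acts at the ER-Golgi intermediate compartment, the early Golgi and recycling endosomes, lies at chr3:57557090-57583947 on the minus strand of GRCh37. Its normalized counts were 510 and 539 in Ctr-1 and Ctr-2 and 889, 955 and 897 with NSD2-1, NSD2-2 and NSD2-3. The 3 NSD2-KD values lie close together and far above both Ctr-KD values. The means were 524 ± 20.8 (SD, n = 2) and 914 ± 35.9 (SD, n = 3), a log2 difference of 0.80 with a standard error of 0.09 on log2(normalized count + 1). ARF4-AS1 overlaps exons of ARF4 on the other strand, and since the strand setting of the counting is not given in the sources used here, reads of the pair cannot be told apart. In bulk RNA, more RNA per cell and more cells with the RNA cannot be told apart either.

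ARF5, the other class II ARF, had 183 and 173 normalized counts in Ctr-KD cells and 231, 191 and 206 in NSD2-KD cells. The groups did not overlap, but the log2 difference of 0.23 (standard error 0.13) did not pass the test (limma, adjusted p = 0.659). ARF1, the class I ARF that recruits coatomer, had 1320 and 1263 against 1392, 1316 and 1384, and NSD2-2 fell within the range of the Ctr-KD libraries. Its log2 difference was 0.08 (limma, adjusted p = 0.833). ARF3, the other class I ARF, had 572 and 567 against 553, 489 and 583, with NSD2-KD values on both sides of Ctr-KD. ARF6, which acts at the plasma membrane and endosomes, had 399 and 425 against 416, 326 and 276, lower with NSD2-2 and NSD2-3 and within the Ctr-KD range with NSD2-1 (log2 difference of -0.30, standard error 0.17; limma, adjusted p = 0.65). ARL1, an ARF-like GTPase that brings GRIP-domain golgins to the trans-Golgi, had 190 and 202 against 235, 241 and 110. It was above both Ctr-KD libraries with NSD2-1 and NSD2-2 and far below them with NSD2-3.

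Per kilobase of the canonical transcript, ARF1 was the most abundant ARF in Ctr-KD cells at 702 ± 21.9 normalized counts per kb (SD, n = 2), followed by ARF4 at 329 ± 13.0, ARF5 at 172 ± 6.90, ARF3 at 141 ± 0.828, ARF6 at 106 ± 4.69 and ARL1 at 61.2 ± 2.67. With these lengths, neighbours in the order were further apart than the spread of the 2 Ctr-KD libraries. By all annotated exons ARF1 and ARF4 were still highest, but ARF5 (97.5) came below ARF3 (115) and ARF6 (104). In NSD2-KD cells ARF4 reached 572 ± 22.5 normalized counts per kb (SD, n = 3) and ARF1 741 ± 22.7. Of the summed level per kb of ARF1, ARF3, ARF4, ARF5 and ARF6, ARF4 made up 21.9% and 23.4% in the Ctr-KD libraries and 31.3%, 35.1% and 32.5% with NSD2-1, NSD2-2 and NSD2-3. By canonical transcript the order of the 5 was the same in the group means of NSD2-KD cells.

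**Figure D2:**
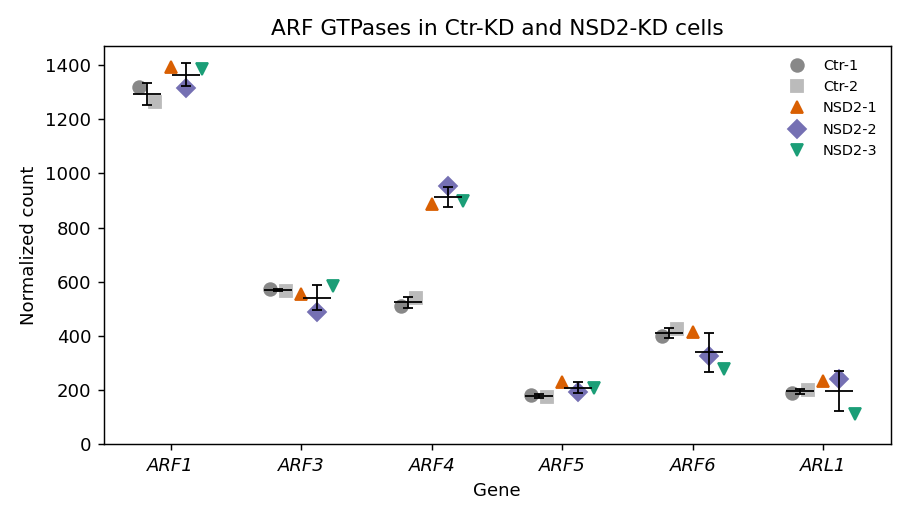
Normalized counts (y axis) of the 6 ARF GTPases in the 2 Ctr-KD and 3 NSD2-KD libraries. Points are libraries, and black lines with bars are group means ± SD (n = 2 and n = 3). ARF4 lies at 510 and 539 in Ctr-KD cells and between 889 and 955 in NSD2-KD cells, and ARL1 is lowest with NSD2-3 at 110.

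All 50 genes had a mean normalized count of at least 10 and entered the test over 11313 genes, limma with a mean-variance trend and Benjamini-Hochberg adjustment. At an adjusted p under 0.05, ARF4 was higher (1 of 50, where 0.0354% of all tested genes were called higher) and 0 of 50 were lower, where 0.053% were. Nothing is read from this count, since ARF4 chose the list, and ARF4 was not called without Ctr-1, Ctr-2 or NSD2-2 (limma, adjusted p = 0.999, 0.916 and 0.0554). At an unadjusted p under 0.05, 2 of 50 were higher (ARF4 and GOLGB1) against 4.19% of all tested genes, and 0 of 50 were lower against 4.99%. DESeq2 on the recovered reads gave 1 higher and 0 lower at that unadjusted threshold. All 3 NSD2-KD libraries lay above both Ctr-KD libraries for 5 genes (ARF4, ARF5, ARFGAP2, GOLGB1 and KDELR1), where 13.8% of all tested genes did. They lay below both for another 5 (COPG2, SEC24A, SEC24B, SAR1B and SURF4), where 13.9% did. With 10% of 50 genes in each direction, these counts are not above the background. For SEC24B and SURF4 the margin was very small. NSD2-3 had 154.23 and 1231.9 normalized counts, against 154.32 and 1233.5 in Ctr-2. Exons of another gene overlap those of 32 of the 50 genes, and their counts are uncertain to that extent.

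The log2 differences ran from -0.41 (LMAN1) to 0.80 (ARF4), with ARFGAP2 next at 0.36. In all, 27 were above 0 and 23 below. The median was 0.017, and 0.015 without ARF4, beside -0.0089 over all tested genes. The median size of the difference, without its sign, was 0.099 in the 50 genes, 0.159 over all tested genes and 0.138 over the 7429 tested genes within the same range of Ctr-KD means. The median Ctr-KD mean was 420, 87.2 and 137 in these 3 sets, so the sizes are not like for like. Values per library follow for the genes picked by role. The others (GBF1, ARFGAP3, COPA, COPB2, ARCN1, GOLGA2, GOLGA4, GORASP1, USO1, TMED3, TMED9 and TMED10) had log2 differences between -0.23 (GOLGA4) and 0.13 (GORASP1). The genes with the Golgi stress element core had a median log2 difference of -0.067 (n = 19) and those with a window and without it 0.03 (n = 23).

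The ARF regulators switch ARFs on (the exchange factors GBF1, ARFGEF1 and ARFGEF2) or off (the GTPase-activating proteins ARFGAP1, ARFGAP2 and ARFGAP3). All 6 had log2 differences above 0, from 0.002 (ARFGAP3) to 0.36 (ARFGAP2), with a median of 0.11, and 0 of the 6 passed the test. Of all 11313 tested genes, 5491 were above 0. The shared direction was not kept in all of 16 alternatives, which change the processing or leave out 1 library. ARFGAP3 kept it in 11, GBF1 in 14, and ARFGEF1 and ARFGEF2 in 15 each. ARFGEF1 and ARFGEF2 were above 0 in every alternative that kept all libraries. ARFGAP2, which stimulates GTP hydrolysis by ARF1 on COPI vesicles, had 111 and 115 normalized counts in Ctr-KD cells and 146, 122 and 170 in NSD2-KD cells. Each siRNA gave a value above both controls, by unequal amounts (log2 difference of 0.36, standard error 0.17; limma, adjusted p = 0.575). Exons of CSTPP1 overlap those of ARFGAP2 on the other strand. ARFGAP1 had the highest level per kb of the regulators, with 437 and 384 normalized counts against 461, 483 and 419, and the groups overlapped. The trans-Golgi exchange factors ARFGEF1 (197 and 200 against 183, 250 and 202) and ARFGEF2 (288 and 238 against 273, 288 and 302) also overlapped between groups.

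The 9 coatomer genes had a median log2 difference of 0.023, and 5 were above 0 and 4 below. Of the 9, 8 lay between -0.13 (COPG1) and 0.10 (COPB1). COPB1, the beta subunit, had 574 and 568 normalized counts in Ctr-KD cells and 650, 561 and 625 in NSD2-KD cells, higher with NSD2-1 and NSD2-3. COPE, the epsilon subunit and the highest of the 9 per kb, had 367 and 377 against 397, 382 and 362. The gamma subunit has 2 genes. COPG1 had 756 and 788 against 805, 555 and 790, and its NSD2-2 value was the only one below the controls. COPG2 had 53.3 and 44.2 against 37.7, 37.1 and 37.1, below both controls with each siRNA (log2 difference of -0.37, standard error 0.20; limma, adjusted p = 0.623). It had the fewest reads of the 50 genes, and exons of MEST overlap it on the other strand. Per kb, COPG1 exceeded COPG2 7.93-fold and 9.97-fold in the Ctr-KD libraries and between 8.36-fold and 11.9-fold in the NSD2-KD libraries. The zeta subunit genes COPZ1 (309 and 321 against 342, 338 and 283) and COPZ2 (143 and 137 against 129, 153 and 125) were nearly equal per kb, with ratios of 1.04 and 1.13 in Ctr-KD cells.

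Among the 10 COPII genes, 4 had log2 differences above 0 and 6 below, with a median of -0.077 and 0 past the test. SEC23A, which activates the GTPase of SAR1, had 926 and 891 normalized counts in Ctr-KD cells and 827, 524 and 903 in NSD2-KD cells. The NSD2-2 library stood apart, at 57.7% of the mean of the controls. Its paralog SEC23B had 141 and 151 against 142, 131 and 88.8, and there it was NSD2-3 that stood apart, at 60.8%. The SEC23A to SEC23B ratio per kb was 5.17 and 4.64 in Ctr-KD cells and 4.60, 3.15 and 8.0 with NSD2-1, NSD2-2 and NSD2-3, so the extremes of the ratio were in those 2 libraries.

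SEC24 proteins select cargo by binding export signals. SEC24A had 237 and 235 normalized counts in Ctr-KD cells and 129, 222 and 210 in NSD2-KD cells. With NSD2-1 it had 54.6% of the control mean, and with the other siRNAs 94.0% and 89.0% (log2 difference of -0.37, standard error 0.22; limma, adjusted p = 0.675). SEC24B had 156 and 154 against 133, 140 and 154, SEC24C 474 and 517 against 461, 542 and 463, and SEC24D 645 and 658 against 727, 639 and 662. Per kb of canonical transcript in Ctr-KD cells, SEC24D was at 162, SEC24C at 112, SEC24A at 36.9 and SEC24B at 30.5, but by all annotated exons SEC24C (92.6) was above SEC24D (65.7). In the outer coat, SEC13, the highest COPII gene per kb, had 480 and 462 against 438, 530 and 469, and SEC31A had 905 and 852 against 907, 1079 and 885. SEC31A had the largest difference above 0 of the COPII genes, 0.12. The GTPase genes SAR1A (394 and 366 against 444, 458 and 328) and SAR1B (149 and 157 against 129, 134 and 143) lay on different sides of 0. Exons of SEC24A and SAR1B overlap each other on opposite strands, so part of their reads cannot be told apart.

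**Figure D3:**
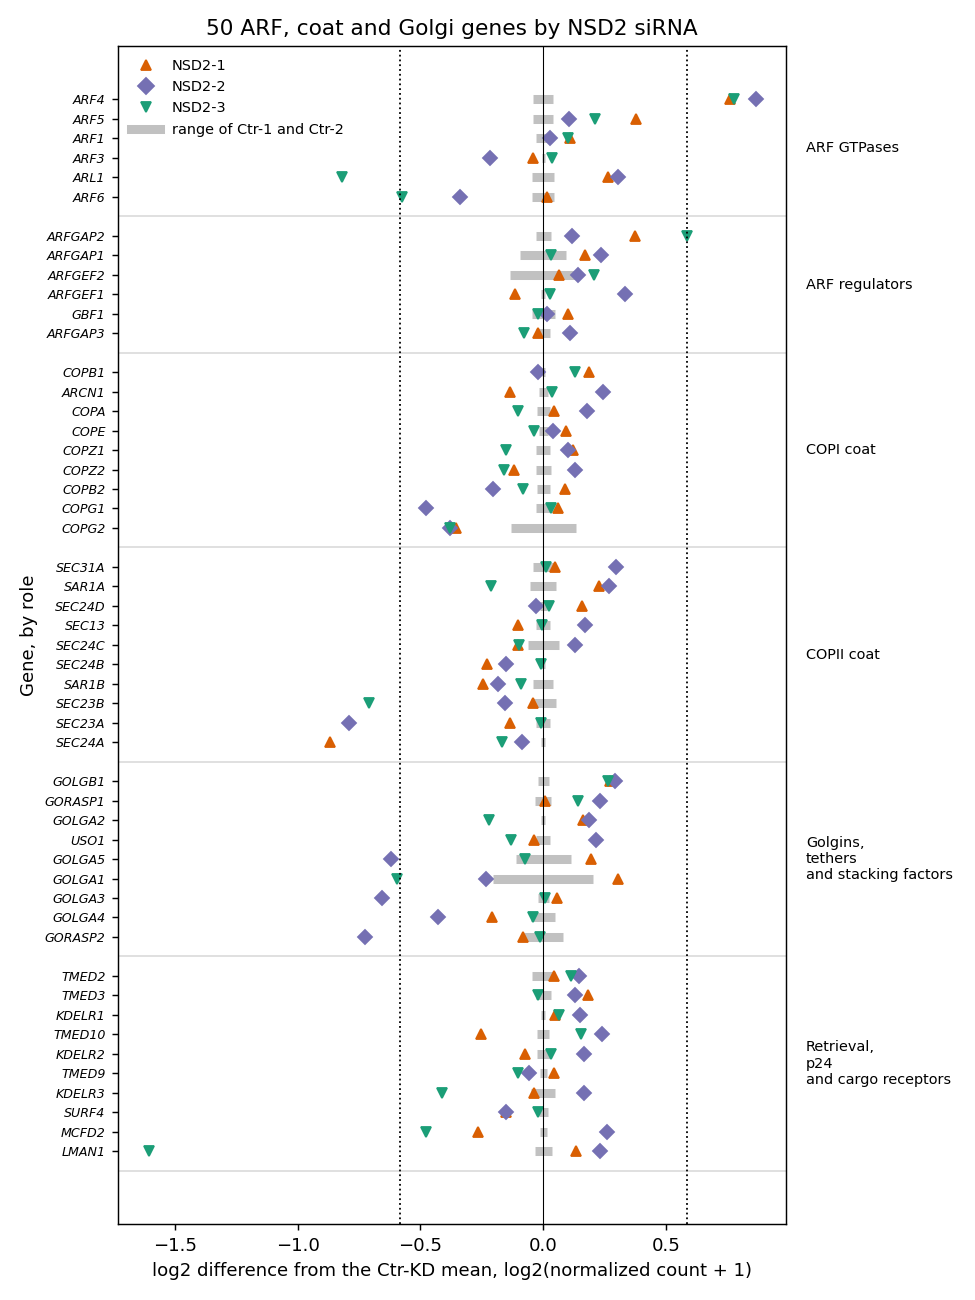
Log2 difference of each NSD2-KD library from the Ctr-KD mean (x axis, on log2(normalized count + 1)) for the 50 genes (y axis, by role). Markers are the NSD2-1, NSD2-2 and NSD2-3 libraries, grey bars span Ctr-1 and Ctr-2 (the length of their difference, centred on 0), and dotted lines mark 1.5-fold. ARF4 lies beyond the upper line with all 3 siRNAs, and each gene beyond the lower line is there with 1 siRNA.

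The 9 golgins, tethers and stacking factors had a median log2 difference of -0.17, with 4 above 0 and 5 below. GOLGB1 (giantin), a membrane-anchored golgin of the cis-medial Golgi, had 420 and 434 normalized counts in Ctr-KD cells and 516, 523 and 513 in NSD2-KD cells. The 3 siRNAs gave nearly equal values, all above both controls. Its log2 difference of 0.28 (standard error 0.09) had an unadjusted p of 0.0185 and did not pass the adjustment over all tested genes (limma, adjusted p = 0.405). GORASP2, a Golgi reassembly and stacking protein, was the highest of the group per kb and had the lowest log2 difference in it (-0.27). It had 307 and 343 against 306, 196 and 321, with NSD2-2 alone well below the controls, at 60.2% of their mean. GOLGA3 (golgin-160) had 650 and 630 against 664, 405 and 642, and GOLGA5 (golgin-84), a tether for vesicles within the stack, 130 and 151 against 160, 90.7 and 133. Both were lowest with NSD2-2, at 63.4% and 64.6% of the control mean. GOLGA1 (golgin-97), a GRIP-domain golgin brought to the trans-Golgi by ARL1, had 65.7 and 87.4 against 93.9, 64.4 and 49.8 and the lowest level per kb of all 50 genes. ARL1 was also lowest with NSD2-3, but with NSD2-2 it lay above both its controls (241 normalized counts) and GOLGA1 below both of its own. A link between the counts of ARL1 and GOLGA1 was not tested.

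The retrieval, p24 and cargo receptors had a median log2 difference of 0.0003, with 5 above 0 and 5 below. KDEL receptors bring ER-resident proteins back from the Golgi in COPI vesicles. KDELR1 had 507 and 512 normalized counts in Ctr-KD cells and 527, 566 and 533 in NSD2-KD cells, above the controls by a small amount (log2 difference of 0.09; limma, adjusted p = 0.835). KDELR2 had 1035 and 996 against 964, 1138 and 1037, and KDELR3 had 236 and 253 against 238, 274 and 184. Per kb, KDELR2 and KDELR1 were nearly equal, with ratios from 1.02 to 1.14 over the 5 libraries, and KDELR2 exceeded KDELR3 between 2.39-fold and 3.43-fold. SURF4, a receptor for soluble secreted cargo and the highest of the group per kb, had 1265 and 1234 against 1124, 1125 and 1232. TMED2, a p24 protein that helps load GPI-anchored cargo, had 792 and 741 against 789, 848 and 829, the largest difference above 0 in the group (0.10).

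LMAN1 and MCFD2 encode the partners of a cargo receptor that carries coagulation factors V and VIII out of the ER. LMAN1 had 673 and 640 normalized counts in Ctr-KD cells and 720, 770 and 215 in NSD2-KD cells. Above both controls with NSD2-1 and NSD2-2, it had 32.7% of the control mean with NSD2-3, the lowest such share of any of the 50 genes. The counting interval of that NSD2-3 value (95%, exact Poisson, counting error only) was 187 to 245 normalized counts. The fitted log2 difference of -0.41 had a standard error of 0.47, and without the NSD2-3 library (NSD2-KD replicate 3) the difference was 0.18. MCFD2 had 747 and 733 against 615, 885 and 531, also lowest with NSD2-3. The LMAN1 to MCFD2 ratio of counts was 0.901 and 0.874 in Ctr-KD cells and 1.17, 0.87 and 0.404 with NSD2-1, NSD2-2 and NSD2-3.

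A description by siRNA was added after the values had been seen, with 1.5-fold from the Ctr-KD mean as its limit. ARF4 was past it upward with all 3 siRNAs, as 0.424% of all tested genes were, and ARFGAP2 just reached it with NSD2-3. Downward, 9 of the 50 genes (18%) were past it with at least 1 siRNA, where 18.4% of all tested genes were. Among the 7429 tested genes within the same range of Ctr-KD means, 14.8% were, and 836 were past the limit in exactly 1 library. Those genes share the range but are not matched in level, with a median Ctr-KD mean of 137 against 420 in the 50 genes. Over all tested genes that median was 87.2, so none of these shares is a background matched for depth of counts. Each of the 9 was past the limit in exactly 1 library, which 13.6% of all tested genes were. In all 3 libraries 0 of the 50 were past it, which 1.39% of all tested genes were. With NSD2-1 the gene was SEC24A. With NSD2-2 they were SEC23A, GOLGA3, GOLGA5 and GORASP2, and with NSD2-3 they were ARL1, SEC23B, GOLGA1 and LMAN1. Over all tested genes the shares with NSD2-1, NSD2-2 and NSD2-3 were 7.13%, 9.93% and 7.4% downward and 3.45%, 4.39% and 3.85% upward. The Ctr-KD libraries differed by less than 1.5-fold for every one of the 50 genes, with the largest log2 difference at GOLGA1 (0.41 in size). The median SD on the log2 scale was 0.144 among the 3 siRNAs and 0.042 between the Ctr-KD libraries. Over all tested genes these medians were 0.202 and 0.0975. Over the 7429 tested genes within the same range of Ctr-KD means they were 0.173 and 0.078. An SD of 3 libraries and an SD of 2 are not like for like.

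Levels per kb covered a wide range within the route. In Ctr-KD cells ARF1 was highest at 702 normalized counts per kb, followed by SURF4 at 426, KDELR2 at 364 and SEC13 at 347. KDELR1, COPE and ARF4 were level at 329. The lowest were GOLGA1 at 15.7, SAR1B at 23.5 and ARFGEF1 at 27.1. Of the golgins, tethers and stacking factors, the stacking factor GORASP2 was highest at 133, and the highest golgin was GOLGA2 at 93.7. The order depends on the length used. By all annotated exons of a gene in place of the canonical transcript, TMED3 moved from rank 21 to 50, COPB2 from 12 to 35 and SEC13 from 4 to 22, and ARF4 from 7 to 6. TMED3 was then the lowest gene in place of GOLGA1, and ARFGAP3, ARCN1, SEC23A and USO1 were highest in their roles in place of ARFGAP1, COPE, SEC13 and GORASP2.

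**Figure D4:**
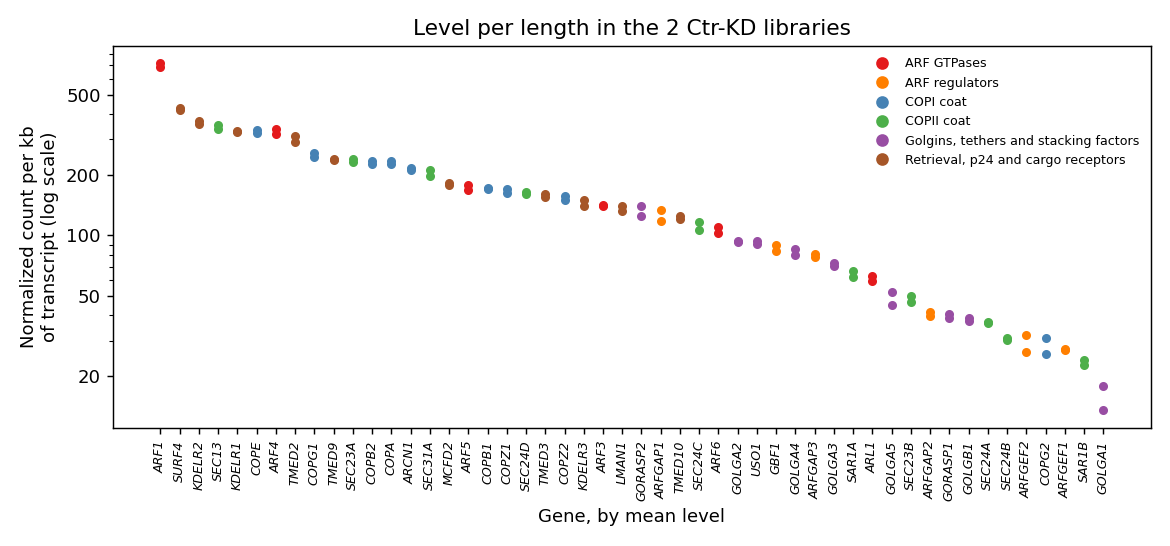
Level of the 50 genes in Ctr-1 and Ctr-2 (points, normalized counts per kb of canonical transcript, log scale), ordered by mean and coloured by role. ARF1 is highest at a mean of 702 and GOLGA1 lowest at 15.7.

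Other genes of the same pathway were counted from lists written with earlier results of these data known. Of 95 further genes of ER-Golgi traffic (SNAREs, Rab GTPases, TRAPP and COG tethers, further ARF-like GTPases and regulators), 94 were tested. At an adjusted p under 0.05, 0 were higher and 0 lower, and their median log2 difference was 0.016. At an unadjusted p under 0.05, 0 were higher and 3 lower, where 4.19% and 4.99% of all tested genes were, so the share of 3 in 94 is not above the background. All 3 had every NSD2-KD library below both controls. They included ERGIC2, a membrane protein of the intermediate compartment (122 and 138 against 100.3, 54.6 and 95.7 normalized counts), and SEC22A, a SEC22-family protein (45.7 and 47.3 against 34, 21.8 and 25.4). The log2 differences of ERGIC2 and SEC22A were -0.68 and -0.78, and their adjusted p-values in limma 0.471 and 0.366.

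Of 25 factors and targets of the ER and Golgi stress responses, 24 were tested, with 0 higher and 0 lower at either threshold of limma, adjusted or not, and a median log2 difference of 0.034. The groups did not overlap for 1 gene above its controls, CREB3L1 (1020 and 1089 against 1093, 1247 and 1231), and for 2 below, HSP90B1 (2110 and 2087 against 1977, 1939 and 1972) and CALR (3713 and 3705 against 3554, 3483 and 3357), where 13.8% and 13.9% of all tested genes did not. Their adjusted p-values missed the threshold in limma, as for the rest of the list. These and 3 more genes are named after their values were seen. CREB3 had 233 and 214 normalized counts in Ctr-KD cells and 214, 245 and 235 in NSD2-KD cells. TFE3 had 402 and 353 against 421, 383 and 397. HSPA5 (BiP), the main ER chaperone and a target of the unfolded protein response, had 2338 and 2452 against 2185, 2362 and 2271. The groups overlapped for CREB3, TFE3 and HSPA5. These are RNA levels, and whether the CREB3 and TFE3 proteins were active was not tested.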

How the data were processed

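RNA was selected by poly(A), and libraries were sequenced as single ends. The authors mapped the reads to hg19 with HISAT2, kept unique ones with SAMtools, counted them with featureCounts and deposited, as a signal, each count divided by 1 DESeq2 size factor per library. The annotation and strand setting are not given in the sources used here. A second deposited table, the authors' DESeq2 comparison (mean, fold change, error, statistic and p-values), was not used. In every library 100% of values were whole multiples of 1 read (within 0.01), so reads were recovered for edgeR 4.0.16 and DESeq2 1.42.0 as alternatives.

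The main test was limma 3.58.1 (R 4.3.3) with a trend, two-sided, without covariates, on log2(normalized count + 1). It covered 11313 genes, those averaging at least 10 normalized counts, at a Benjamini-Hochberg adjusted p of 0.05. This scale understates changes of low genes. The members and lists were chosen with earlier results of these data known. Of the further ER-Golgi traffic genes, 1 is not reported here. Values are given for all ARF GTPases, paralog pairs, each role's highest gene per kb and its largest differences in both directions, and genes past an unadjusted p with groups that did not overlap. Lengths came from GENCODE v44 on GRCh37, promoter windows from RefSeq (GRCh38.p14). On simulated data with 200 genes changed 4-fold, 189 passed the filter and limma called 187, with 10 unchanged genes called among 11296 tested. The simulation gave every gene the same dispersion in both groups and held no smaller changes. It therefore does not show how often a change of the size of ARF4 (1.74-fold) would be called.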

Additional observations from a re-analysis of the deposited data

How the results depend on the processing

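Over 16 alternatives the log2 difference of ARF4 stayed between 0.76 and 0.84, and it was called at an adjusted p under 0.05 in 12. It was not called by limma without the trend (adjusted p = 0.277) or without Ctr-KD replicate 1, Ctr-KD replicate 2 or NSD2-KD replicate 2, the NSD2-2 library (adjusted p = 0.999, 0.916 and 0.0554 in limma). Over the alternatives its adjusted p ran from 0.000151 (DESeq2) to 0.999. In those 4 settings 0 genes of the 50 were called, and with 1 replicate left out the count of higher genes ran from 0 to 1. None of the other 49 genes was called in any of the 16, and 27 of the 50 kept their direction in all of them. The cause of these losses was not tested. Leaving out a Ctr-KD library leaves 1 control, assumed to vary like the NSD2-KD libraries, and then 0 of all tested genes were called. At an unadjusted p under 0.05, limma without the trend gave 1 higher and 1 lower gene, and DESeq2 1 higher. Leaving out 1 replicate gave 1 to 2 higher and 0 to 2 lower.

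With the replicate number as a block (replicate block), 3 genes were lower at an unadjusted p under 0.05. Deviations of same-numbered libraries had a correlation of -0.024, and in NSD2-KD cells the number is that of the siRNA, so the libraries share only a number. Over all tested genes the block gave 18 higher and 84 lower calls, DESeq2 14 and 41, edgeR 5 and 11, and the main test 4 and 6. The smallest change detectable at this depth was not tested.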
